A study of Mus musculus with 4 samples.

Results

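Xcl1 and Ccl1, 2 chemokine ligand genes of the 32285 genes in the count matrices, are described here by T cell receptor V gene, by clonotype and by Foxp3 status. They were proposed with their difference between Vβ3 cells and other cells already known, so that difference is given as a description without a test. The donors were B6.H2g7 mice, labelled B6.NOD-(D17Mit21-D17Mit10)/LtJ and 6 to 8 weeks old, which carry the H2g7 haplotype of NOD mice on a C57BL/6 background. Their splenic CD4 T cells were purified on magnetic columns, and 5000000 cells were transferred into NOD.Rag1null hosts, which cannot make T or B cells of their own. On day 14, live CD4 T cells, gated by antibodies to CD4 and TCRβ, were recovered by sorting from the spleens of 2 hosts, mouse 1 and mouse 2, and a 5′ gene expression library and a receptor library were prepared per host. The labels name 2 donors and do not say whether their cells were pooled, there is no untransferred control group, and every comparison is between classes of cells from the same hosts.

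XCL1, or lymphotactin, is the C-class chemokine released by activated CD8 T cells, natural killer cells and some CD4 T cells, and its receptor XCR1 marks the dendritic cells specialised for cross-presentation. CCL1 is a CC-class chemokine of activated T cells and mast cells, and its receptor CCR8 is known from regulatory T cells and type 2 helper cells. Foxp3 is the transcription factor that defines regulatory T cells.

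A cell was kept with at least 500 genes, at most 10% of UMIs (unique molecular identifiers, 1 per captured transcript) from mitochondrial genes, and exactly 1 productive TRB chain. This left 5993 and 6332 cells of 9996 and 9733 barcodes in mouse 1 and mouse 2, with 38725969 and 44796902 UMIs and medians of 5596 and 6219.5 UMIs per cell. The libraries shared 58 kept barcode sequences, of which 0 had the same clonotype in both. A clonotype, meaning cells of 1 mouse with the same TRB V gene, J gene and CDR3 nucleotide sequence, numbered 3166 and 3316. The main T cell markers fitted the sort: Cd3e was found in 98.5% and 98.8% of the cells and Cd4 in 84.1% and 86.9%. Cd8a and the dendritic marker Clec9a had 0 UMIs in both mice, and the NK cell marker Ncr1 had 0 and 2. Other markers outside the sort were found. The CD8 T cell marker Cd8b1 was in 4.94% and 4.91% of cells, and the NK cell marker Klrb1c in 1.60% and 2.31%. The erythroid gene Hbb-bs was in 1.77% and 2.59%, and the macrophage gene C1qa in 0.784% and 1.26%. Xcr1, the receptor for XCL1, had 1 and 0 UMIs. Ccr8, the receptor for CCL1, was found in 11.2% and 14.4% of kept cells.

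Both ligands were rare and uneven. Xcl1 (ENSMUSG00000026573, GRCm38 chromosome 1, 164931644 to 164935527, minus strand in GENCODE M21, where Gm20743 overlaps it on the opposite strand) had 1776 UMIs in mouse 1 and 1584 in mouse 2. These lay in 220 of 5993 cells (3.67%, exact binomial 95% interval 3.21% to 4.18%) and 236 of 6332 cells (3.73%). Ccl1 (ENSMUSG00000020702, chromosome 11, minus strand, 82176666 to 82179812 in RefSeq, with a longer GENCODE M21 model that starts at 82176657 and ends at 82305690) had 297 and 168 UMIs in 25 and 27 cells. All intervals in this account cover counting error only. The shares of positive cells differed little between mice, but the level of Xcl1 over all kept cells was 45.9 CPM (counts per 1000000 UMIs) in mouse 1 and 35.4 CPM in mouse 2, and that of Ccl1 was 7.67 and 3.75 CPM.

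Free RNA can place a UMI in a cell that does not express the gene, and a low share of positive cells has to be read against that. The lowest share in a large class of kept cells was that of Foxp3-positive cells, 0.544% in mouse 1 and 0.873% in mouse 2 for Xcl1, and this share was used as the reference. It is only an upper limit for free RNA, since in mouse 2 it includes 3 cells with 5 or more Xcl1 UMIs, up to 13. As the class was picked for its low share, that share is no separate support for the Foxp3 comparison below. The median depth of Foxp3-positive cells was 6338 and 6597.5 UMIs against 5522 and 6166 UMIs in Foxp3-negative cells. For Ccl1, whose shares of positive cells lay between 0.288% and 0.873% in Vβ3, other, Foxp3-positive and Foxp3-negative cells, no class offered a lower reference, and 13 of its 25 positive cells in mouse 1 and 17 of 27 in mouse 2 had a single Ccl1 UMI, so its shares of positive cells are given as values from which no pattern is read. Single cells with 5 or more UMIs were therefore taken as high cells for both genes. There were 61 and 66 Xcl1-high cells, 1.02% and 1.04% of kept cells, and they held 85.2% and 82.6% of all Xcl1 UMIs. The 9 and 5 Ccl1-high cells held 91.6% and 81.0% of all Ccl1 UMIs.

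Single clonotypes carried much of the signal, and for Xcl1 the number of contributing clonotypes was similar in the hosts. The clonotype with the most Xcl1 UMIs held 17.6% of them in mouse 1 (95% interval 15.9% to 19.5%) and 14.4% in mouse 2 (12.7% to 16.2%). The leading 5 clonotypes held 54.5% and 51.6%, and the leading 10, with 9.18% and 14.3% of the kept cells, held 72.2% and 72.8%. These clonotypes were ranked by the same UMIs, so a share of UMIs above their share of cells is built in. Single cells made up much of it, as the leading 10 cells alone held 56.9% and 42.7% of all Xcl1 UMIs. At least 1 Xcl1 UMI was found in 114 of 3166 and 100 of 3316 clonotypes. The high cells came from 35 and 29 clonotypes, with at most 9 and 11 high cells in any 1 of them.

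Ccl1 was carried by single cells, too few to show whether clonotypes had a part. The leading Ccl1 clonotype held 20.9% of the UMIs in mouse 1 and 56.5% in mouse 2, and in each case all of them came from 1 cell, with 62 and 95 UMIs. Every Ccl1-high cell belonged to a different clonotype, 9 in mouse 1 and 5 in mouse 2. So few cells among 3166 and 3316 clonotypes cannot show whether they gather in clonotypes. The curves of cumulative share by clonotype and by cell nearly coincide for Ccl1 and are well apart for Xcl1. For Ccl1 they have to, since its 25 and 27 positive cells lay in 23 and 26 clonotypes.

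**Figure D1:**
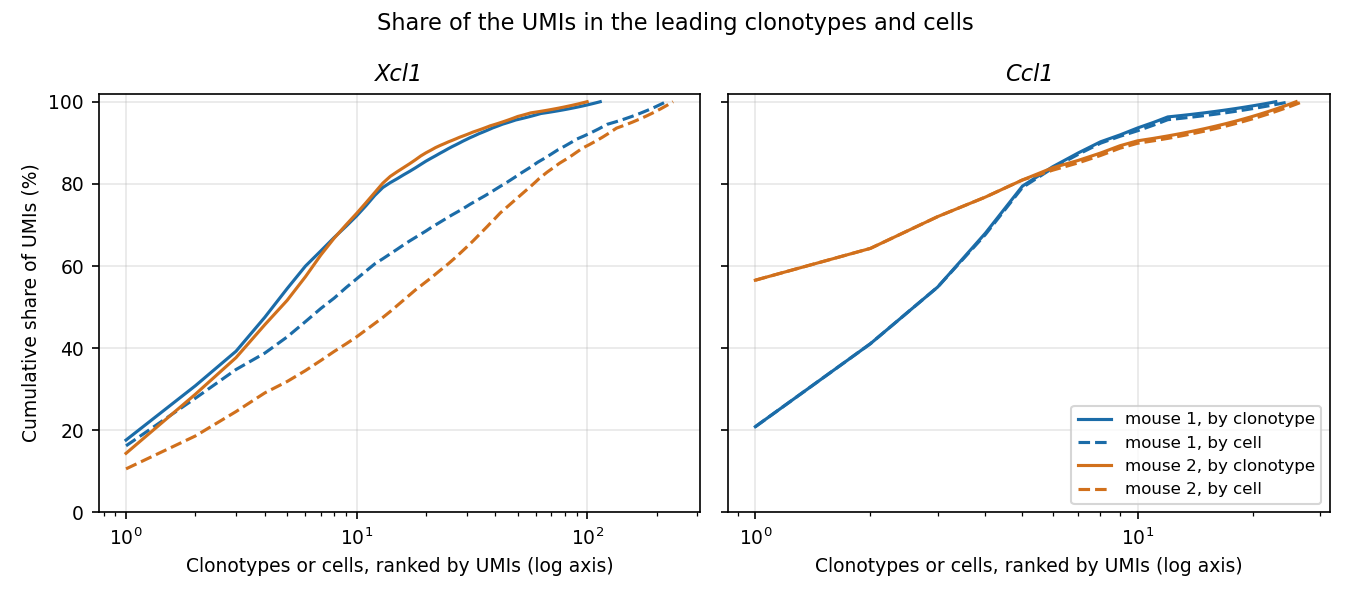
Cumulative share of the UMIs of each gene (vertical axis, %) over clonotypes (solid) or single cells (dashed) ranked from the most UMIs to the fewest (horizontal log axis), per mouse. The leading 10 clonotypes held 72.2% and 72.8% of Xcl1 UMIs, and the leading 10 cells held 56.9% and 42.7%.

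The CDR3 nucleotide sequences of the leading clonotypes are shown because they identify which expansions carried Xcl1. They were read from the deposited receptor contigs, run 5′ to 3′ on the coding strand, and are in lower case throughout. The leading 5 Xcl1 clonotypes were, by V and J gene, in mouse 1:
TRBV16-TRBJ2-2: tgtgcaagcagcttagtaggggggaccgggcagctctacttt
TRBV31-TRBJ1-4: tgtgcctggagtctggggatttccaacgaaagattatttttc
TRBV13-3-TRBJ2-4: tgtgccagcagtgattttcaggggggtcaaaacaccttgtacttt
TRBV14-TRBJ1-3: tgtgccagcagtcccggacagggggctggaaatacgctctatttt
TRBV19-TRBJ1-4: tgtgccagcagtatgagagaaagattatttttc
and in mouse 2:
TRBV13-3-TRBJ1-4: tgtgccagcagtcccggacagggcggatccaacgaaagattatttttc
TRBV29-TRBJ2-3: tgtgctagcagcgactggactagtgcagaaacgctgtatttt
TRBV2-TRBJ2-2: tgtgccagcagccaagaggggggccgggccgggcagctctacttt
TRBV12-2+TRBV13-2-TRBJ2-3: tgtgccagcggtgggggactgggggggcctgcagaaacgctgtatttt
TRBV2-TRBJ2-7: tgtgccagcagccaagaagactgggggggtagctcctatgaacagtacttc

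None of these 10 clonotypes used TRBV26, the V gene of Vβ3, and 9 of the 10 were seen in only 1 mouse. The exception was the TRBV16-TRBJ2-2 clonotype of mouse 1, which also had 2 kept cells in mouse 2. It led mouse 1 with 313 Xcl1 UMIs over 51 cells, but 288 of them (92.0%) were in 1 cell, a barcode with 45979 UMIs in total, and only 5 of its cells were positive. The TRBV31-TRBJ1-4 clonotype had 235 UMIs over 216 cells, 206 of them in 1 cell of 6545 UMIs, and 14 positive cells. Both places near the top thus rested on a single cell.

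Other leading clonotypes held many positive cells. In mouse 1 the TRBV13-3-TRBJ2-4 clonotype had 14 positive cells of 51 (27.5%, 95% interval 15.9% to 41.7%) with 149 UMIs, and the TRBV14-TRBJ1-3 clonotype had 13 of 60 (21.7%, 12.1% to 34.2%) with 147 UMIs. In mouse 2 the TRBV2-TRBJ2-2 clonotype had 25 positive cells of 103 (24.3%, 16.4% to 33.7%) with 141 UMIs. These 3 shares are above the 3.67% and 3.73% of all kept cells by more than counting error, and the clonotypes were picked for their UMIs, so this is a description.

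The largest clonotype of mouse 2, TRBV29-TRBJ2-3, had 366 cells, 228 Xcl1 UMIs and 30 positive cells (8.20%). The TRBV13-3-TRBJ1-4 clonotype of mouse 2 also had 228 UMIs, over 103 cells, of which 168 were in 1 cell. The remaining leading clonotypes were small: in mouse 1 TRBV19-TRBJ1-4 had 124 UMIs in 1 of 6 cells, and in mouse 2 a clonotype of 1 cell had 127 UMIs and TRBV2-TRBJ2-7 had 94 UMIs in 1 of 5 cells. In the 9 of these clonotypes with more than 1 cell, the cell with the most Xcl1 UMIs carried the α chain most common in its clonotype.

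**Figure D2:**
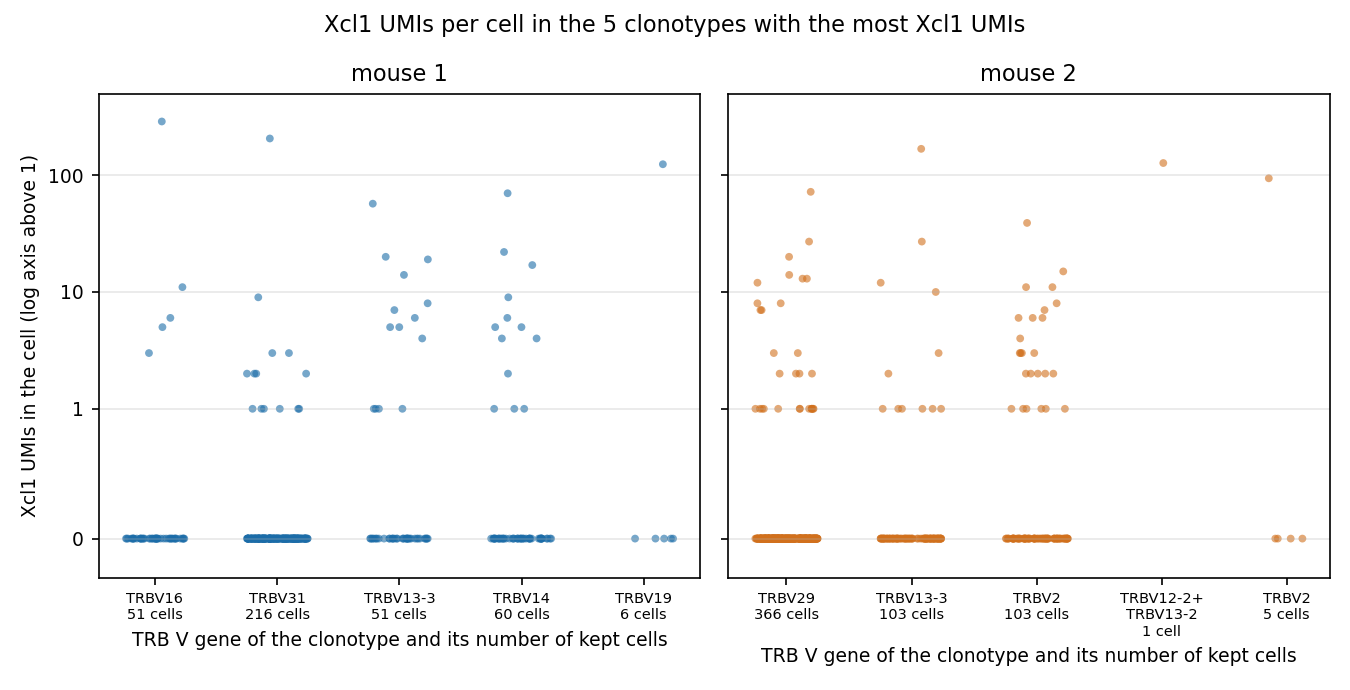
Xcl1 UMIs in every kept cell (points, log axis above 1) of the 5 clonotypes with the most Xcl1 UMIs in mouse 1 (left) and mouse 2 (right). Most cells of each expanded clonotype sit at 0, and 288, 206 and 168 UMIs sit in single cells far above the rest of their clonotypes.

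Most large clonotypes that were not mainly Foxp3-positive, the large leaders among them, held some Xcl1. Of the clonotypes of 20 or more cells with Foxp3 in under 50% of their cells, 16 of 17 in mouse 1 and 15 of 19 in mouse 2 had an Xcl1-positive cell. A clonotype of many cells is more likely to hold at least 1 positive cell at any share, so nothing is read from these counts alone. Positive cells made up 9.35% and 9.20% of the cells in those clonotypes, and the share per clonotype ran from 0% to 27.5% (median 8.70%) in mouse 1 and from 0% to 24.3% (median 8.20%) in mouse 2. An Xcl1-high cell was found in 11 of the 17 and 10 of the 19.

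By V gene, the mean Xcl1 level of the mice was lowest in Vβ3 cells and highest in TRBV14 and TRBV13-3 cells, and most of the order between them rested on single cells. The order was taken over the 12 V genes with at least 100 kept cells in each mouse, by the mean of the mice. TRBV14 stood at 183 and 154 CPM in mouse 1 and mouse 2, and TRBV13-3 at 161 and 138 CPM. TRBV16 came next at 265 CPM in mouse 1 and 19.3 CPM in mouse 2, and TRBV19 followed at 128 and 36.1 CPM. The values of neighbours in this order overlapped between mice at every step.

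Without the single cell with the most Xcl1 UMIs in each class, TRBV14 was still at 123 and 129 CPM and TRBV13-3 at 118 and 70.9 CPM. TRBV16 went from 265 to 49.2 CPM in mouse 1, and TRBV19 from 128 to 22.3 CPM and from 36.1 to 0.846 CPM. The share of positive cells, which 1 cell cannot move far, was 14.2% and 10.3% for TRBV14, 9.71% and 10.2% for TRBV13-3, 6.11% and 9.38% for TRBV2, and 4.76% and 9.85% for TRBV1. Few clonotypes lay behind the first 2: the Xcl1 UMIs of TRBV14 came from 3 and 2 clonotypes, with 69.7% and 56.4% in the leading 1. Those of TRBV13-3 came from 4 and 7, with 71.6% and 66.1% in the leading 1. With equal weight per clonotype, TRBV14 stood at 44.5 and 18.9 CPM and TRBV13-3 at 14.8 and 17.5 CPM. All cells without Vβ3 stood at 15.0 and 17.8 CPM by that weighting, so the order describes expansions as much as V genes. The middle of the order held TRBV1 (66.5 and 63.0 CPM), TRBV2 (37.5 and 90.5 CPM), TRBV12-2 with TRBV13-2 (57.6 and 56.0 CPM), which are listed together as named in the contigs, and TRBV31 (84.0 and 17.3 CPM).

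At the low end, TRBV5 stood at 17.0 and 17.9 CPM, TRBV23, the V gene of Vβ20, at 17.6 and 4.76 CPM, and TRBV13-1 at 18.0 and 4.08 CPM. TRBV26 was last at 4.27 and 10.9 CPM, with 1.58% and 1.63% positive cells, close to the 1.77% and 1.38% of TRBV23. The TRBV23 and TRBV26 values overlapped, so these data do not order the last places.

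**Figure D3:**
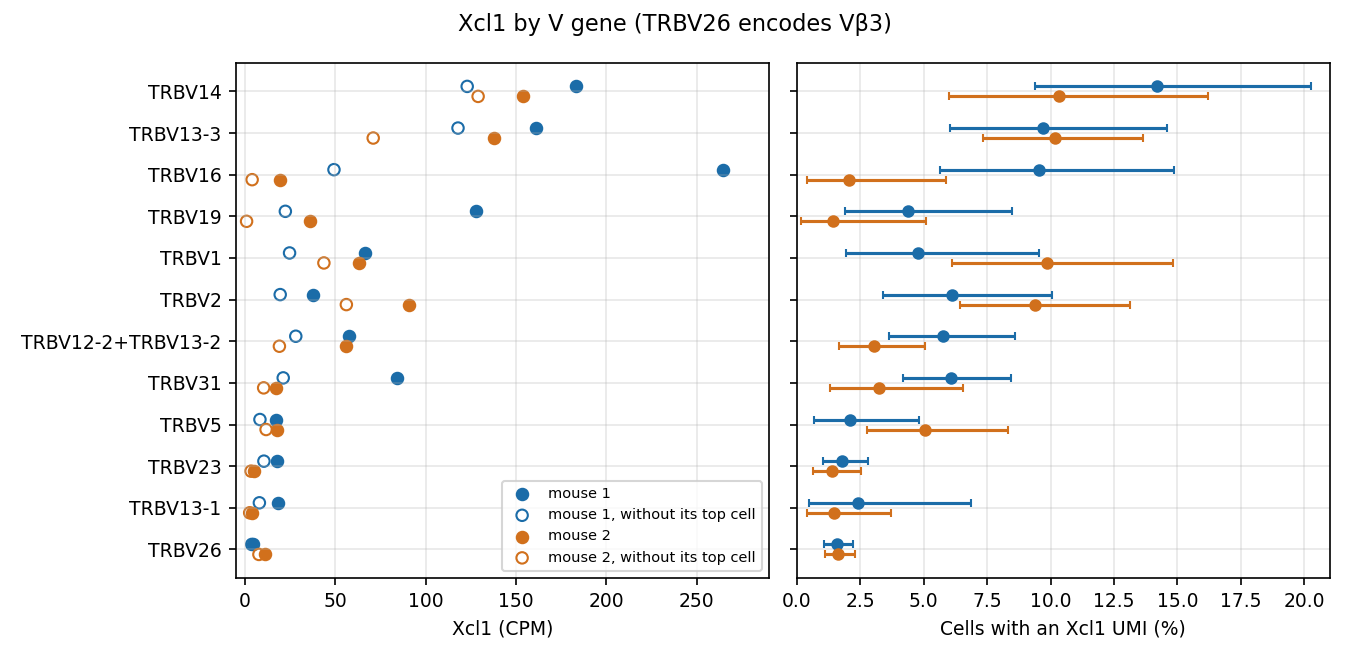
Xcl1 level in CPM (left; filled points all cells, open points without the cell that has the most Xcl1 UMIs) and share of cells with an Xcl1 UMI with exact binomial 95% intervals (right), for 12 V genes and 2 mice. TRBV26, which encodes Vβ3, sits at 4.27 and 10.9 CPM, and removing 1 cell takes TRBV16 in mouse 1 from 265 to 49.2 CPM.

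Vβ3 cells, 34.8% and 31.0% of the kept cells, held 54 of 1776 Xcl1 UMIs in mouse 1 (3.04%) and 148 of 1584 in mouse 2 (9.34%). Their level of 4.27 and 10.9 CPM compared with 66.1 and 46.0 CPM in all other cells, a log2 difference of -3.67 in mouse 1 and -1.98 in mouse 2 on the scale of CPM plus 1. The share of positive cells was 1.58% and 1.63% against 4.78% and 4.67%. Thinned to 2500 UMIs per cell, it was 0.821% and 1.15% against 3.30% and 3.23%. The classes did not overlap in level or in share over the 2 mice. As Xcl1 was proposed from this contrast, that is no separate support for a difference. Over all 12990 genes tested in this contrast, 12.6% were called lower in Vβ3 cells by edgeR, and nothing is read from that share for a gene proposed from the contrast. Of the Xcl1-high cells, 2 of 61 and 8 of 66 were Vβ3.

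The gap in positive cells was narrower in small clonotypes of the same size, but a gap in level remained. Among cells alone in their clonotype, 1.32% and 1.20% of Vβ3 cells were Xcl1-positive against 1.59% and 1.62% of other cells. The levels there were 3.94 and 8.75 CPM against 11.4 and 20.4 CPM, or 2.88 and 3.25 against 7.35 and 9.05 CPM without the top cell of each class. In clonotypes of 2 to 4 cells the shares were 1.24% and 1.24% against 1.95% and 2.39%, and the levels 2.11 and 3.20 CPM against 14.5 and 9.23 CPM. In clonotypes of 5 to 19 cells the shares were 1.83% and 3.41% against 7.42% and 4.33%. The levels were 4.41 and 18.6 CPM against 72.1 and 45.8 CPM. In mouse 1 neither gap at this size was narrower than over all cells, but its Vβ3 values came from 7 UMIs in 4 cells. With every clonotype given equal weight, Vβ3 stood at 4.16 and 10.5 CPM and the others at 15.0 and 17.8 CPM. Clonotypes of 50 or more cells, which held 52.0% and 55.4% of all Xcl1 UMIs, comprised 738 cells in mouse 1 and 1247 in mouse 2, and only 0 and 59 of these cells were Vβ3.

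By V gene, the Ccl1 levels rested on single cells. Vβ3 cells stood at 1.97 and 2.58 CPM and other cells at 10.4 and 4.26 CPM, and 2 of the 9 and 2 of the 5 Ccl1-high cells were Vβ3. The share of positive cells was 0.288% and 0.561% against 0.486% and 0.366%. TRBV2 led the order with 35.1 and 35.0 CPM, and in each mouse that value came from 1 cell, with 60 and 95 UMIs. TRBV19 was at 54.5 CPM in mouse 1 and had 0 Ccl1 UMIs in 139 cells of mouse 2, which by the limit of 3 counts of the total allows a share of up to 2.16% of cells with a UMI.

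Among the other chemokine ligands, 8 of 21 passed the filter on low counts in the comparison of Vβ3 with other cells, and edgeR's quasi-likelihood test called 4 lower and 1 higher in Vβ3 cells, beside 12.6% and 10.1% of all genes tested. These calls rest on 1 residual degree of freedom and an edgeR prior worth 96.1 more. Without the mouse block, 272 genes were called in place of 2946. Ccl3, which attracts monocytes and T cells, was at 203 and 231 CPM in Vβ3 cells and at 436 and 445 CPM in others. Ccl5, or RANTES, was at 8242 and 6102 CPM against 13080 and 13154 CPM. Of 11 cytotoxic and NK cell genes tested, 10 were lower and Klrb1c was higher.

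The next comparison asked whether the 2 ligands differed between Foxp3-positive and Foxp3-negative cells, with a Foxp3-positive cell having at least 1 Foxp3 UMI. Xcl1 was almost absent from Foxp3-positive cells. It had 5 UMIs in 5 of 919 Foxp3-positive cells of mouse 1 and 40 UMIs in 10 of 1146 of mouse 2, or 0.700 and 4.37 CPM, against 56.1 and 43.3 CPM in Foxp3-negative cells. Of the Xcl1-high cells, 0 of 61 and 3 of 66 were Foxp3-positive.

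Among cells without Vβ3, Xcl1 stood at 0.701 and 5.40 CPM in Foxp3-positive and at 84.4 and 57.4 CPM in Foxp3-negative cells. It fell by 4.43 on the log2 scale (SE 0.40) with an adjusted p of 2.88e-07 in edgeR's quasi-likelihood test, and was lower in both mice (-5.65 and -3.19). Of 12287 genes tested, 16.7% were called lower in Foxp3-positive cells and 18.7% higher. The p-values rest on sums per mouse and class from 2 hosts, with 3 residual degrees of freedom and an edgeR prior worth 11.8 more, and measure only the spread between these sums.

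In Vβ3 cells the same contrast was -3.00 (SE 1.33, edgeR adjusted p = 0.107), from 1 and 3 Xcl1 UMIs in 177 and 254 Foxp3-positive cells, in a fit that called 28.9% of genes in either direction. The call depended on the setting, since with 1 cell per clonotype the difference was -8.26 (edgeR adjusted p = 0.0082). In that setting the 97 and 157 Foxp3-positive Vβ3 cells held 0 Xcl1 UMIs, against 31 and 79 in Foxp3-negative Vβ3 cells. The -8.26 thus rests on counts of 0, and its size is not an estimate. Over all kept Vβ3 cells, the level was 0.695 and 1.31 CPM in Foxp3-positive and 4.72 and 12.9 CPM in Foxp3-negative cells. The Foxp3 effect did not differ detectably between Vβ3 and other cells (difference 1.43, SE 2.30, edgeR adjusted p = 0.836, where 2.51% of genes were called), with an error larger than the difference, and its direction turned to -0.36 when Foxp3-positive cells needed at least 2 Foxp3 UMIs. Within Foxp3-negative cells the gap between V gene classes persisted, at 4.72 and 12.9 CPM in Vβ3 against 84.4 and 57.4 CPM in other cells.

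Ccl1 did not pass the Foxp3 test. Among cells without Vβ3 it stood at 11.0 and 1.46 CPM in Foxp3-positive and at 10.3 and 5.05 CPM in Foxp3-negative cells (log2 -0.40, SE 0.39, edgeR adjusted p = 0.466). The mice disagreed in sign, and the direction turned to 0.58 (edgeR adjusted p = 0.402) when the single top cell of each ligand in each mouse was left out. Over all kept cells, positive cells made up 0.653% and 0.873% of Foxp3-positive and 0.374% and 0.328% of Foxp3-negative cells. In mouse 1, 60 of the 74 Ccl1 UMIs in Foxp3-positive cells came from 1 cell with 31107 UMIs in total, in a TRBV2-TRBJ2-3 clonotype of 4 cells that were all Foxp3-positive. This clonotype is shown because it is the only strong Ccl1 source of regulatory phenotype among the leading 5 of each mouse:
TRBV2-TRBJ2-3: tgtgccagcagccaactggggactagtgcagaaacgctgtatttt

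The receptor for CCL1 had the opposite pattern to Xcl1. Among cells without Vβ3, Ccr8 stood at 165 and 218 CPM in Foxp3-positive and 17.2 and 20.2 CPM in Foxp3-negative cells, and it rose by 3.34 on the log2 scale (SE 0.07, edgeR adjusted p = 3.87e-14). Of 9 other chemokine ligands tested, 4 fell and 2 rose, beside 16.7% and 18.7% of all genes tested. Those that rose were Cxcl2 and Cxcl3, neutrophil attractants at 2.45 CPM or less. Ccl5 fell from 16112 and 16204 to 2263 and 2311 CPM, and Ccl3 from 520 and 545 to 133 and 90.4 CPM. Of 11 cytotoxic and NK cell genes, 10 fell, among them Eomes, a T-box factor of cytotoxic cells (log2 -3.37), and Klrd1, the NK receptor subunit CD94 (log2 -4.17), and the granzyme gene Gzmb rose (log2 1.15). The median log2 difference was -3.56 for this list and -0.01 for all genes tested. All 9 regulatory genes of the list rose.

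Expansion was the other property tested. Among cells without Vβ3, Xcl1 was higher in cells of clonotypes with at least 2 cells, at 92.3 and 60.2 CPM, than in cells alone in their clonotype, at 11.4 and 20.4 CPM. The log2 difference was 2.21 (SE 0.25, edgeR adjusted p = 8.01e-06). Taken per mouse it was 2.92 and 1.52. Of 12018 genes tested, 11.9% were called higher and 12.3% lower.

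The share of Xcl1-positive cells without Vβ3 was 1.59% and 1.62% in clonotypes of 1 cell, 1.95% and 2.39% at 2 to 4 cells, 7.42% and 4.33% at 5 to 19, 8.76% and 6.44% at 20 to 49, and 9.35% and 9.85% at 50 or more. In mouse 1 most of the rise lay between 2 to 4 and 5 to 19 cells, and in mouse 2 the share was higher in each larger class. With equal weight per clonotype the log2 difference in level was 2.07 in mouse 1 and -0.16 in mouse 2. In mouse 2, 127 of the 228 UMIs in clonotypes of 1 cell came from 1 cell. How far the sign in mouse 2 rests on that cell or on the weighting was not tested. Within Foxp3-negative cells the steps were alike, from 2.03% and 1.95% at 1 cell to 9.44% and 9.87% at 50 or more, whereas Foxp3-positive cells of clonotypes of 5 to 19 cells were positive in 1.30% and 0.680%.

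**Figure D4:**
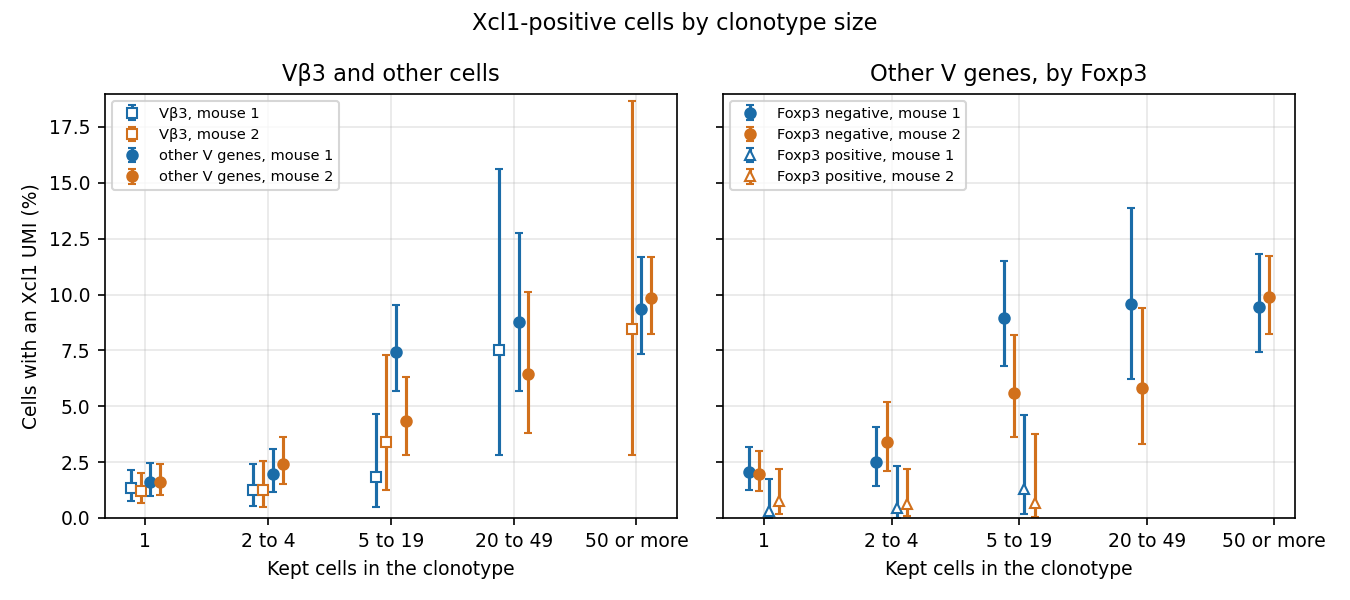
Share of cells with an Xcl1 UMI (vertical axis, %, with exact binomial 95% intervals) by the number of kept cells in the clonotype, for Vβ3 and other cells (left) and for Foxp3-positive and Foxp3-negative cells without Vβ3 (right), in bins of at least 50 cells. Cells without Vβ3 go from 1.59% and 1.62% in clonotypes of 1 cell to 9.35% and 9.85% at 50 or more, and Foxp3-positive cells reach at most 1.30% in the bins drawn.

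In Vβ3 cells, expanded and single clonotypes stood at 4.62 and 14.0 CPM against 3.94 and 8.75 CPM (log2 0.48, SE 0.56, edgeR adjusted p = 0.683), where 9.25% of genes were called in either direction. The size effect on Xcl1 was smaller in Vβ3 than in other cells by 1.73 (SE 0.63), which did not pass the threshold over all genes (edgeR adjusted p = 0.137), as 6.35% of genes did. Few Vβ3 cells were in large clonotypes, and their intervals were wide. At 20 to 49 cells in mouse 1, 7.50% of 80 Vβ3 cells were positive (2.80% to 15.6%) against 8.76% of other cells, but the level was 18.9 against 143 CPM. At 50 or more in mouse 2, 8.47% of 59 Vβ3 cells were positive against 9.85%, with levels of 107 and 119 CPM.

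Ccl1 also passed the size test in cells without Vβ3, but on the strength of single cells. It stood at 13.1 and 5.24 CPM in expanded and 4.85 and 2.51 CPM in single clonotypes (log2 1.29, SE 0.31, edgeR adjusted p = 0.0061). Without the top cell of each ligand the difference was 0.20 (edgeR adjusted p = 0.859), and without their top clonotypes 0.26 (edgeR adjusted p = 0.803). It also missed the threshold without the mouse block (edgeR adjusted p = 0.141) and with DESeq2 (adjusted p = 0.111). The share of Ccl1-positive cells was 0.565% and 0.271% in expanded against 0.318% and 0.562% in single clonotypes. In Vβ3 cells the difference was -0.64 (SE 0.58, edgeR adjusted p = 0.578).

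Of 8 other chemokine ligands tested in cells without Vβ3, 4 rose with expansion and 0 fell by edgeR's test, beside 11.9% and 12.3% of all genes tested. Ccl5 stood at 17827 and 19205 CPM in expanded against 3193 and 2296 CPM in single clonotypes, Ccl3 at 616 and 652 against 60.1 and 73.6 CPM, and Ccl4 at 1541 and 1624 against 246 and 311 CPM. The fourth, Ccl27a, was at 3.94 CPM or less and shares its symbol with other entries of the annotation, so its value is uncertain. Of 11 cytotoxic and NK cell genes, 9 rose, including Prf1, which encodes perforin (log2 2.33), and Nkg7 (log2 2.11), and Gzma and Klrb1c fell. The median log2 difference of this list was 1.95.

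Few cells held both ligands. Cells with a UMI of each numbered 4 in mouse 1, out of 220 with Xcl1 and 25 with Ccl1, and 2 in mouse 2, out of 236 and 27. The product of the shares gives 0.918 and 1.01 cells, so the overlap was not below that product. This was not tested. The strongest Ccl1 cell of mouse 1, in the TRBV19-TRBJ1-4 clonotype, held 62 Ccl1 and 124 Xcl1 UMIs. A TRBV13-3-TRBJ2-4 cell of mouse 1 held 14 and 57, and the top Ccl1 cell of mouse 2, in the TRBV2-TRBJ2-2 clonotype, held 95 and 3. The other Ccl1-high cells, 7 of 9 and 4 of 5, had 0 Xcl1 UMIs.

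Cells high in Xcl1 also differed from cells without it in other genes, given here as a description since the cells were picked by a measured value. They had medians of 7764 and 7142.5 UMIs against 5576 and 6212 UMIs in cells with 0, and 90.2% and 87.9% of them were in expanded clonotypes. Among 9828 genes of at least 5 CPM in either class, 0.926% were more than 1 log2 unit higher in both mice and 1.18% more than 1 lower, on the scale of CPM plus 10. Of 16 genes known as targets of recent T cell receptor signalling, 4 were over that line: Crtam (560 and 232 CPM against 10.0 and 7.97 CPM), which encodes an adhesion molecule of activated cytotoxic cells, the nuclear receptor gene Nr4a2 (459 and 248 against 39.7 and 42.7 CPM), Tnfrsf9, which encodes 4-1BB (647 and 574 against 133 and 153 CPM), and the transcription factor gene Egr2 (186 and 92.2 against 39.4 and 37.6 CPM). Other members of the list did not follow: Egr1 was at 72.7 and 76.9 against 101 and 116 CPM, and Nr4a1 went in opposite directions in the mice.

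The cytotoxic genes split in Xcl1-high cells. Eomes was at 392 and 179 CPM against 93.1 and 71.4 CPM, and Klrd1 and Klrk1, both NK receptor genes, were over the same line, whereas Gzmb was at 55.0 and 1.71 CPM against 228 and 261 CPM and Gzma at 0 and 1.71 CPM against 26.6 and 36.5 CPM. Ccl5 was lower, at 3664 and 2351 against 11711 and 11182 CPM, although it was detected in 95.1% and 80.3% of Xcl1-high cells. Ccl4 was at 3691 and 1587 against 1017 and 958 CPM. Of 9 regulatory genes, 4 were under the lower line, among them Ctla4 (31.9 and 54.7 against 207 and 248 CPM). Dissociation stress genes were over or under the line in 0 of 8 cases, and the macrophage markers were found in at most 1.64% of Xcl1-high cells. Xcl1-high cells from 1 clonotype share their history and are not independent of each other.

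**Figure D5:**
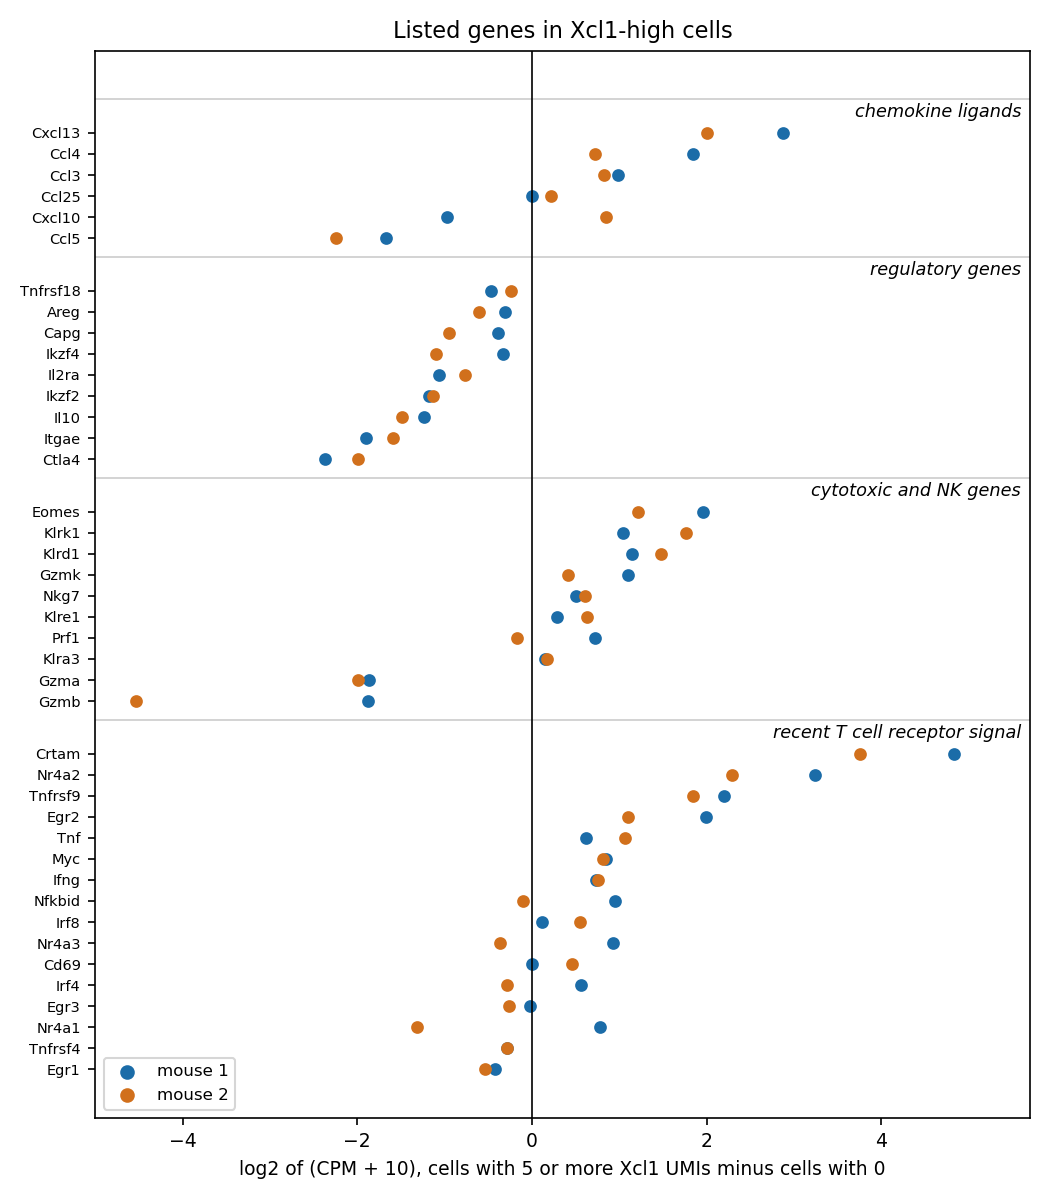
Difference between cells with 5 or more Xcl1 UMIs and cells with 0 (horizontal axis, log2 of CPM plus 10), for the listed genes of at least 5 CPM in either class (rows), per mouse (points). Crtam, Nr4a2 and Tnfrsf9 lie to the right in both mice, and Gzmb, Gzma, Ccl5 and Ctla4 to the left.

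Ccl1-high cells numbered only 9 and 5, and their levels are likewise a description. They had medians of 7711 and 11094 UMIs against 5589.5 and 6218 UMIs in cells with 0. The deepest held 31107 UMIs in mouse 1, in a Foxp3-positive cell, and 21276 UMIs in mouse 2. These single cells weigh most in the summed levels. On the same scale, 1.82% of 9641 genes were more than 1 higher in both mice and 6.02% more than 1 lower. Of 16 genes of recent T cell receptor signalling, 2 were over the line, Egr2 and Crtam. Egr2 was at 307 and 275 CPM against 41.5 and 38.2 CPM in cells with 0 Ccl1 UMIs, and was found in 88.9% and 60.0% of the high cells. Crtam was at 215 and 155 against 21.8 and 13.0 CPM, from 2 of the 9 and 1 of the 5 cells. Of 9 regulatory genes, 2 were over the line, Capg (819 and 809 against 322 and 378 CPM) and Il2ra, which encodes the α chain of the IL-2 receptor (235 and 138 against 31.3 and 45.9 CPM), and Areg was under the lower line with 0 UMIs. The median log2 difference of this list was 0.68 in mouse 1 and -1.49 in mouse 2, and Ctla4 was at 256 and 0 CPM against 201 and 241 CPM. Ccl5 was low in these cells, at 113 and 51.6 CPM against 11525 and 11068 CPM, and Eomes had 0 UMIs in all of them. Ccr8 was at 338 CPM against 40.9 CPM in mouse 1 and at 17.2 against 55.1 CPM in mouse 2.

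Across clonotypes of at least 10 kept cells, 51 in mouse 1 and 43 in mouse 2, the genes whose level was most like that of Xcl1 were Samd3 (Pearson r of log2 CPM plus 10 of 0.63 and 0.67), B4galnt1, a ganglioside synthase gene (0.58 and 0.53), Crtam (0.66 and 0.50), Nrgn (0.48 and 0.58) and Cd160, an inhibitory receptor gene of cytotoxic cells (0.47 and 0.61). They were ranked by the lower of the mice's values among 9602 genes, and clonotypes share a library and a range of depths, so these are descriptions. Nrgn was at 1131 and 1645 CPM in Xcl1-high cells against 45.5 and 50.9 CPM in cells with 0. It was not particular to them, as Ccl1-high cells stood at 1505 and 2100 CPM against 66.5 and 84.7 CPM in cells with 0 Ccl1 UMIs. The 5 genes most like Ccl1 were Vax2 (0.26 and 0.30), Xcl1 (0.28 and 0.22), Erlin1, Vezt and Ift140, and likeness at that level is no finding in counts this sparse.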

How the data were processed

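The data are UMI counts per gene and cell barcode and T cell receptor contigs from 2 hosts, deposited by the authors as made with Cell Ranger 7.0.1 on mm10 (GRCm38), per the submitters' processing notes, with no normalization in the count files. The kept cells and their depth are given in the report. Members, lists and named genes were chosen with earlier results of these data known. Named genes are the 2 ligands, the 5 genes most alike to each over clonotypes, up to 4 genes per list, those of smallest p in a comparison, and the 5 clonotypes with most UMIs of each ligand. A gene found outside this rule (Ccl27a, Cxcl2, Cxcl3, Gzmb, Klrb1c and the genes given for high cells) was named after its values were seen.

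Counts were summed per mouse and class and tested with edgeR 4.0.16 (TMM, filterByExpr, quasi-likelihood F test, R 4.3.3), with mouse as a block because the classes come from the same animal, and Benjamini-Hochberg adjustment over all genes at 0.05. The 268 receptor segment genes were left out of the tests. Alternatives were no block, no filter on low counts, DESeq2 1.42.0, other filters on cells, 1 cell per clonotype, and leaving out top clonotypes or, chosen after seeing the data, top cells. The fits were tested on simulated counts with known changes. With 2 mice per class, values are given per mouse. Barcodes with no receptor contig (2901 and 2405) or 2 TRB chains (708 and 702) were not kept. Doublets were not called beyond the limit of 1 TRB chain.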

Additional observations from a re-analysis of the deposited data

Results flagged for a closer look

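Both ligands also had UMIs in barcodes with enough genes and few mitochondrial UMIs that entered no comparison, at more than the 3 counts a library without the gene allows. In barcodes with no receptor contig, Xcl1 stood at 61.2 CPM in mouse 1 (6.14% of 2901 barcodes) and 48.7 CPM in mouse 2 (5.95% of 2405), and Ccl1 at 1.33 and 10.5 CPM. In barcodes with 2 TRB chains, Xcl1 stood at 112 CPM (6.64% of 708) and 61.6 CPM (5.98% of 702), and Ccl1 at 4.0 and 36.2 CPM. All 234 Ccl1 UMIs of that class in mouse 2 were in 1 barcode, more than the 168 Ccl1 UMIs of all kept cells of that mouse. Among barcodes with no contig and at least 5 UMIs of the macrophage genes C1qa, C1qb and C1qc, Xcl1 stood at 68.7 CPM in mouse 1, with 1 positive of 17, and at 667 CPM in mouse 2, with 5 positive of 24. Of these barcodes, 11 and 21 also had Cd3e.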

How the results depend on the processing

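Of 216 alternative values over 25 results, 173 kept their direction and, where tested, their side of the threshold, or for counts and untested values their size. The lower Xcl1 level in Foxp3-positive cells without Vβ3 and the higher level in expanded clonotypes without Vβ3 did so under every alternative with a test. Weighted equally by clonotype, a setting chosen after seeing the data and without a test, the latter was 0.95 on average (2.07 and -0.16 in the mice) and Ccl1 by size was 0.22. The mouse block pairs the classes within an animal. Without it, the genes called were 272 for Vβ3 against other cells (2946 with it), 2720 for Foxp3 without Vβ3 (4345), 14 for the Foxp3 difference between V gene classes (308), 1186 and 71 for size without Vβ3 and in Vβ3 (2907 and 1112), and 48 for the size difference (763), and Ccl1 by size without Vβ3 was 1.35 (edgeR adjusted p = 0.141). With DESeq2 the corresponding counts were 672, 2745, 196, 1219, 558 and 334, and Ccl1 by size was 1.29 (adjusted p = 0.111).

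In the main fits Ccl1 passed none of 3 tests: 1.33 for Foxp3 in Vβ3 cells (edgeR adjusted p = 0.252), 1.73 for the Foxp3 difference (0.399) and -1.93 for the size difference (0.107). Foxp3-positive Vβ3 cells held 11 and 6 Ccl1 UMIs, and in mouse 1 a single cell had 10 of the 11. With no filter on low counts, Foxp3 in Vβ3 cells gave -3.02 for Xcl1 (edgeR adjusted p = 3.79e-08) and 1.31 for Ccl1 (0.0215). The Foxp3 difference then gave 1.73 for Ccl1 (0.02) and 595 genes. The size difference gave -1.74 for Xcl1 (1.19e-11) and -1.94 for Ccl1 (0.000185). That setting has an infinite prior that treats all genes' spread as equal. With 1 cell per clonotype, Ccl1 in Vβ3 against other cells was -0.19, Foxp3 in Vβ3 cells was -8.26 for Xcl1 (edgeR adjusted p = 0.0082) and -0.057 for Ccl1, and the Foxp3 difference was -2.98 for Xcl1 with 147 genes. Both Xcl1 values rest on 0 Xcl1 UMIs in the Foxp3-positive Vβ3 cells of that setting, so their size is not an estimate. With at least 2 Foxp3 UMIs the Foxp3 difference for Xcl1 was -0.36. Leaving out the top clonotypes or top cells turned Ccl1 by Foxp3 without Vβ3 to 0.53 and 0.58 and took Ccl1 by size to 0.26 and 0.20. With 2-TRB cells kept, the size difference for Ccl1 was -2.52 (edgeR adjusted p = 0.0212), against -1.93 (edgeR adjusted p = 0.107) in the main fit. In mouse 2 this setting took expanded cells without Vβ3 from 105 to 339 Ccl1 UMIs. All Ccl1 UMIs of the 2-TRB barcodes of that mouse were in 1 barcode, so the call rests on that barcode. With clonotypes of at least 5 cells, 1673 genes were called by size in Vβ3 cells. Equal clonotype weights took the mean Vβ3 difference of Xcl1 to -1.17.

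Leaving out each mouse gave values without a test, from -1.94 to -0.55 for Ccl1 in Vβ3 against other cells, -1.30 to 0.096 for Ccl1 by Foxp3 without Vβ3, -1.15 to 0.47 for Ccl1 by size in Vβ3 cells, -2.59 to -1.76 for Xcl1 by Foxp3 in Vβ3 cells, 0.60 to 3.89 and 1.32 to 1.85 for the Foxp3 differences of Xcl1 and Ccl1, 0.83 to 1.27 for Ccl1 by size without Vβ3, and -1.98 to -0.81 for its size difference. No count of genes could be had from 1 mouse. The causes of these changes were not tested. With 2 hosts and 9 and 5 high cells, Ccl1 allows statements about single cells, and levels that give under 1 UMI per cell were not detectable in a cell at this depth.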
